A study of Mus musculus with 14 samples.

Results

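Signals that run through Ras, Raf, MEK and ERK are limited by genes that the same pathway switches on. The dual-specificity phosphatases (Dusp) remove phosphates from both the threonine and the tyrosine of activated MAP kinases, while Sprouty (Spry) and Spred proteins act further up, between the growth factor receptor and Raf. In the heart, ERK is activated by stretch, by growth factors and by hormones that act through G protein-coupled receptors, and the transcripts of these inhibitors are widely used as a readout of MAP kinase activity.

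The measurements below concern 10 such genes in mouse left ventricle, namely Dusp1, Dusp2, Dusp4, Dusp5, Dusp6, Spry1, Spry2, Spry4, Spred1 and Spred2, each picked by its gene name from a table of raw read counts for 49315 genes. All 10 were among the 15292 genes with enough reads to be tested. Poly(A) RNA was sequenced from left ventricles of wild-type (WT) mice and of mice with the HCN4F allele, a knock-in in which a tyrosine of the pacemaker channel HCN4 is exchanged for phenylalanine and which is a gain-of-function change. Male mice of each genotype had either transverse aortic constriction (TAC), a narrowing of the aortic arch that loads the left ventricle with pressure, or a Sham operation at 10 to 12 weeks of age, and the hearts were taken 5 weeks later.

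The libraries used here number 4 for WT-Sham, 4 for HCN4F-Sham, 4 for HCN4F-TAC and 2 for WT-TAC, the latter being replicates 2 and 3, so every contrast that involves WT-TAC rests on 2 samples. The libraries held 22309914 to 35210939 counted reads. A count of 3 reads, taken as the detection floor, corresponded to 0.0852 to 0.134 CPM. CPM are read counts scaled to library size, here with the TMM factor that corrects for differences in library composition. The knock-in leaves the Hcn4 transcript in place, so its level does not report the genotype: Hcn4 had 9.45 ± 1.07 CPM in WT-Sham and 9.07 ± 2.87 CPM in HCN4F-Sham (SD, n = 4 each). The 7 cardiomyocyte markers, all tested, summed to 67700 to 70200 CPM in WT-Sham, 62600 and 63000 in WT-TAC, 59600 to 63400 in HCN4F-Sham and 50300 to 56700 in HCN4F-TAC. The atrial markers summed to 31.0 CPM in HCN4F-TAC replicate 2 and 5.04 CPM in HCN4F-TAC replicate 4, against at most 3.59 CPM in every other library. Only 2 of the 4 markers had enough reads to be tested, and none was called in any comparison. The source of this RNA was not tested.

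Per kilobase of exon, Dusp1 was the most abundant of the 10 genes in every group, with group means of 27.9 to 48.9 CPM per kb. Dusp1 is an immediate early gene whose nuclear product inactivates p38, JNK and ERK. Spry1 followed with group means of 10.9 to 16.4 CPM per kb. In WT-Sham, Spred2 (7.53 ± 0.308 CPM per kb), Spry2 (7.20 ± 0.322) and Dusp6 (6.67 ± 0.168) came next, and the library ranges of neighbours in this order overlapped (SD, n = 4). Spred1 (3.35 ± 0.190 CPM per kb) and Spry4 (3.07 ± 0.118) were lower, then Dusp5 (1.81 ± 0.134) and Dusp4 (1.01 ± 0.144). Dusp2, a phosphatase best known from activated lymphocytes, was close to the floor at 0.124 to 0.195 CPM per kb, with 4 to 14 reads per library.

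**Figure D1:**
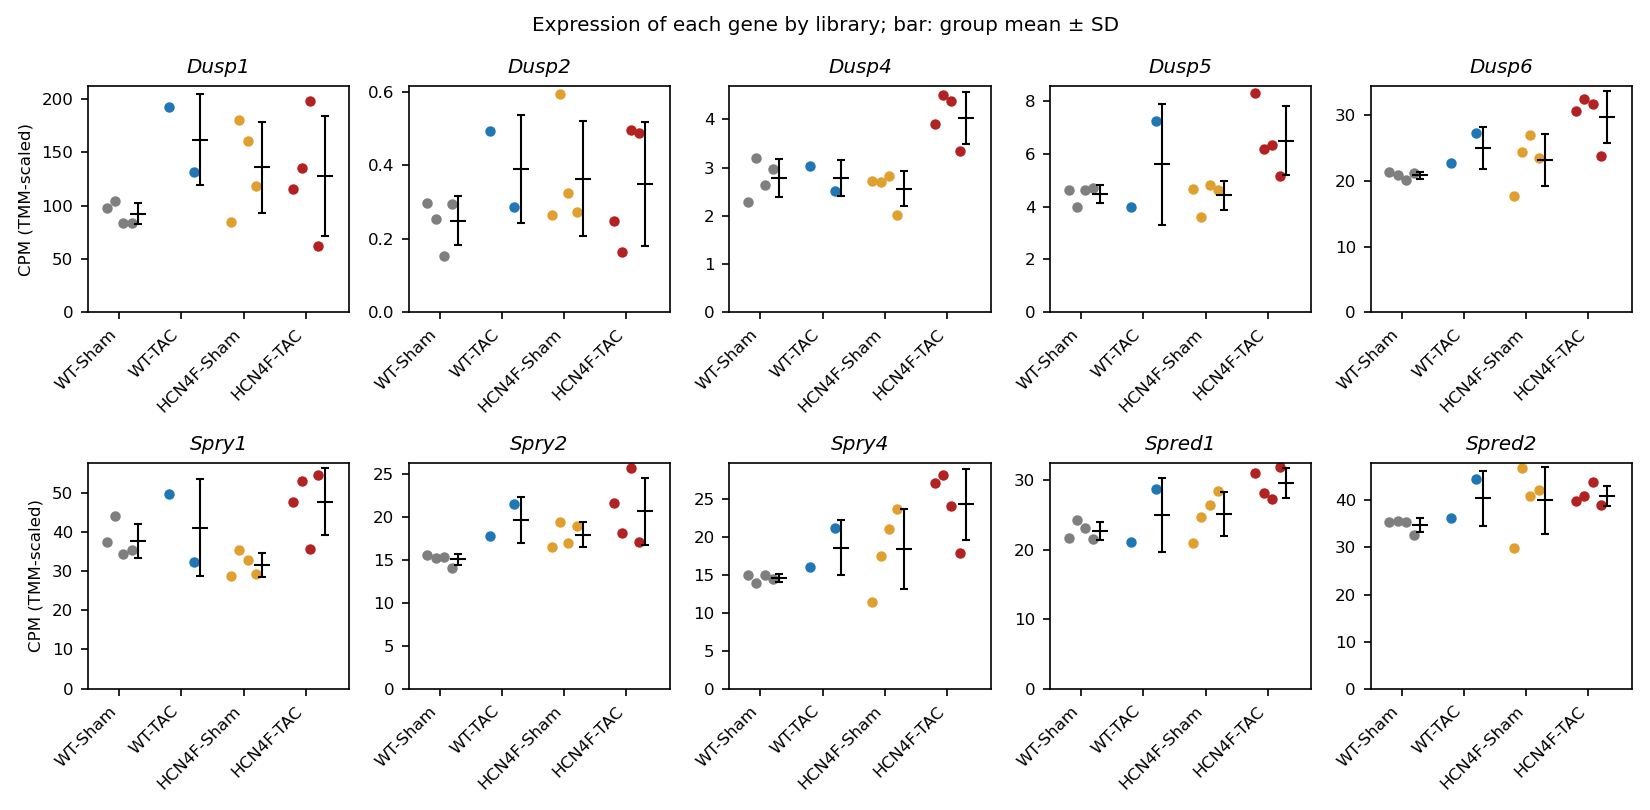
CPM (TMM-scaled) of each of the 10 genes in the 14 libraries, each panel starting at 0, with 1 point per library and the group mean ± SD beside it. WT-Sham libraries lie close together for Dusp6 (20.2 to 21.4 CPM), and HCN4F-TAC libraries lie above all HCN4F-Sham libraries for Dusp4, Dusp5 and Spry1, beside 15.1% of all genes without overlap in either direction.

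The spread differed between groups. Over the 10 genes the coefficient of variation (SD as a percentage of the mean) had a median of 6.54% in WT-Sham, 15.6% in HCN4F-Sham, 18.5% in HCN4F-TAC and 20.4% in the 2 WT-TAC libraries. The median over all tested genes was 9.24%, 13.8%, 11.6% and 7.91% in the same order. WT-Sham hearts thus gave the tightest values for these genes, and 2 WT-TAC libraries gave the widest.

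The first question is how pressure overload changed these genes in HCN4F hearts. Dusp4, Dusp5 and Spry1 were higher in HCN4F-TAC than in HCN4F-Sham at an adjusted p under 0.05, by 1.46-fold to 1.58-fold, and 7 of the 10 genes did not pass. In the quasi-likelihood test of edgeR, with p-values adjusted by the Benjamini-Hochberg procedure across the whole table, 3 of 10 had an adjusted p under 0.05, beside 13.6% of all genes. None of the 10 also had a log2 fold change above 1, the size the study required of a changed gene, beside 2.75% of all genes, and 5 of 10 had an unadjusted p under 0.05, beside 28.3% of all genes. The 2.75% are 420 genes, with 273 called without HCN4F-TAC replicate 2 and 367 to 550 without any other library of the 2 groups. The libraries of the HCN4F groups did not overlap for 3 of 10 (the same 3 genes), beside 15.1% of all tested genes. The median log2 fold change of the 10 genes was 0.30, that of all tested genes -0.01, and 8 of 10 were above 0. In DESeq2 on all groups Dusp4, Dusp5 and Spry1 also had an adjusted p under 0.05 (0.00171, 0.025 and 0.00105), and so did Dusp6 (0.0351).

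Dusp4, which encodes a nuclear phosphatase of ERK, JNK and p38, is annotated on chromosome 8 (plus strand, 34807297 to 34819894, GRCm38). Its 4 HCN4F-Sham libraries had 2.71, 2.69, 2.82 and 2.02 CPM, and its 4 HCN4F-TAC libraries had 3.90, 4.51, 4.38 and 3.34 CPM. All HCN4F-TAC libraries were above all HCN4F-Sham libraries, and the rise was 1.58-fold (log2 fold change 0.66 ± 0.15 SE, adjusted p = 0.00926, edgeR). It kept an adjusted p of at most 0.0357 under the other tests, scalings and filters and with each replicate left out. These levels rest on 59 to 137 reads per library.

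Markers of other cell types moved in the same comparison. The cardiomyocyte sum given above was lower in every HCN4F-TAC library than in any HCN4F-Sham library. Of its 7 markers, 4 were lower at an adjusted p under 0.05 in edgeR (Myh6, Tnnt2, Tnni3 and Myl2), 1 was higher (Actc1), and none reached the fold change limit. Over the 14 libraries this sum had r = -0.647 with Dusp4, -0.732 with Dusp6, -0.703 with Spry4 and -0.737 with Spred1, and r = -0.05, -0.18, -0.14 and -0.19 for deviations from the group means. The 5 lymphocyte markers summed to 0.94 to 1.55 CPM in HCN4F-Sham and 1.91 to 2.97 CPM in HCN4F-TAC, without overlap. Only Cd79a, of B cells, had enough reads to be tested, and it was called higher (2.83-fold), while Cd3e, of T cells, had 1 to 14 reads in all libraries. Dusp4 had r = 0.786 and rho = 0.811 with the lymphocyte sum and r = 0.704 with the fibroblast sum, and r = 0.395 and -0.02 for deviations from the group means. With the summed level of 4 smooth muscle markers Dusp4 had r = -0.592, and -0.548 for deviations. The smooth muscle sum overlapped between HCN4F-Sham (183 to 348 CPM) and HCN4F-TAC (120 to 261 CPM). Its closest relation within groups was with the summed level of 12 immediate early genes, at r = 0.659 and r = 0.647 for deviations, and that sum was 483 to 685 CPM in HCN4F-Sham and 699 to 916 CPM in HCN4F-TAC, without overlap. The part of these shifts in the rises in HCN4F-TAC was not tested.

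Spry1, a Sprouty protein induced by growth factors that dampens receptor tyrosine kinase signalling, is annotated on chromosome 3 (plus strand, 37639947 to 37644598). It had 28.9, 35.5, 32.7 and 29.3 CPM in HCN4F-Sham and 47.7, 53.1, 35.6 and 54.6 CPM in HCN4F-TAC. The groups did not overlap, although HCN4F-TAC replicate 3 was only just above the highest Sham library. The rise was 1.51-fold (log2 fold change 0.60 ± 0.15 SE, adjusted p = 0.0133, edgeR). Under the other tests, scalings and filters and with each replicate left out, its adjusted p was at most 0.0466 (edgeR, without HCN4F-TAC replicate 2). Without both HCN4F-Sham replicate 1 and HCN4F-TAC replicate 4, an alternative chosen after seeing the data, the edgeR log2 fold change of Spry1 came to 0.49, with 0.0865 as its adjusted p.

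Fibroblast markers moved with Spry1. The summed level of 6 fibroblast markers was 578 to 741 CPM in HCN4F-Sham and 1045, 1263, 724 and 1150 CPM in HCN4F-TAC, lowest in the library in which Spry1 was lowest too, and 2 of 6 markers, Col1a1 and Postn, were called higher. Across the 14 libraries, which include the group differences, Spry1 and this sum had Pearson's r = 0.776 and Spearman's rho = 0.736, and r = 0.808 for deviations from the group means. The part of fibroblast RNA in the rise of Spry1 was not tested. In ventricular tissue more cells of a type and more RNA per cell cannot be told apart.

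Dusp5, a nuclear phosphatase selective for ERK, is annotated on chromosome 19 (plus strand, 53529109 to 53542431). It had 4.67, 3.61, 4.85 and 4.62 CPM in HCN4F-Sham and 8.34, 6.19, 6.36 and 5.17 CPM in HCN4F-TAC. The groups did not overlap, and HCN4F-TAC replicate 1 stood highest. The rise was 1.46-fold (log2 fold change 0.55 ± 0.17 SE, adjusted p = 0.0451, edgeR). Of these 3 genes it had the largest adjusted p, and that value moved with the processing: without HCN4F-TAC replicate 1 the adjusted p was 0.146, and with the 2 HCN4F groups fitted alone it was 0.0524 in edgeR and 0.021 in DESeq2. A p over 0.05 was also obtained without any one of the HCN4F-Sham libraries (0.056 to 0.115), without HCN4F-TAC replicate 2 (0.0789) or without HCN4F-TAC replicate 3 (0.0575).

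Dusp6, the cytoplasmic phosphatase that acts almost only on ERK, had 17.7, 24.5, 27.0 and 23.6 CPM in HCN4F-Sham and 30.7, 32.5, 31.8 and 23.8 CPM in HCN4F-TAC. Replicate 4 of HCN4F-TAC lay inside the Sham range, and the log2 fold change of 0.36 ± 0.12 SE had an adjusted p of 0.0516 (edgeR). The adjusted p of Dusp6 was 0.0351 in DESeq2 on all groups and 0.0189 to 0.16 over all alternatives. Spry4, which blocks signalling upstream of Raf, had 11.4, 17.6, 21.0 and 23.7 CPM in HCN4F-Sham and 27.1, 28.2, 24.1 and 17.9 CPM in HCN4F-TAC. Its libraries overlapped too, and its log2 fold change was 0.40 (95% interval -0.01 to 0.80, adjusted p = 0.184, edgeR).

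The other 5 genes did not pass. Spred1, which brings the Ras-inactivating protein neurofibromin to the membrane, had a log2 fold change of 0.23 (0.02 to 0.45, 95% interval, adjusted p = 0.144, edgeR). Spry2 was at 0.20 (-0.04 to 0.44) and the second Spred protein, Spred2, at 0.03 (-0.19 to 0.26). Dusp1 was at -0.09, but its interval of -0.79 to 0.61 was wide, since its HCN4F-TAC libraries ran from 61.8 to 198 CPM. Dusp2 was at -0.03 (-0.88 to 0.83). The intervals of Dusp1 and Dusp2 are several times as wide as that of Spred2, so these data bound a change in them less closely.

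**Figure D2:**
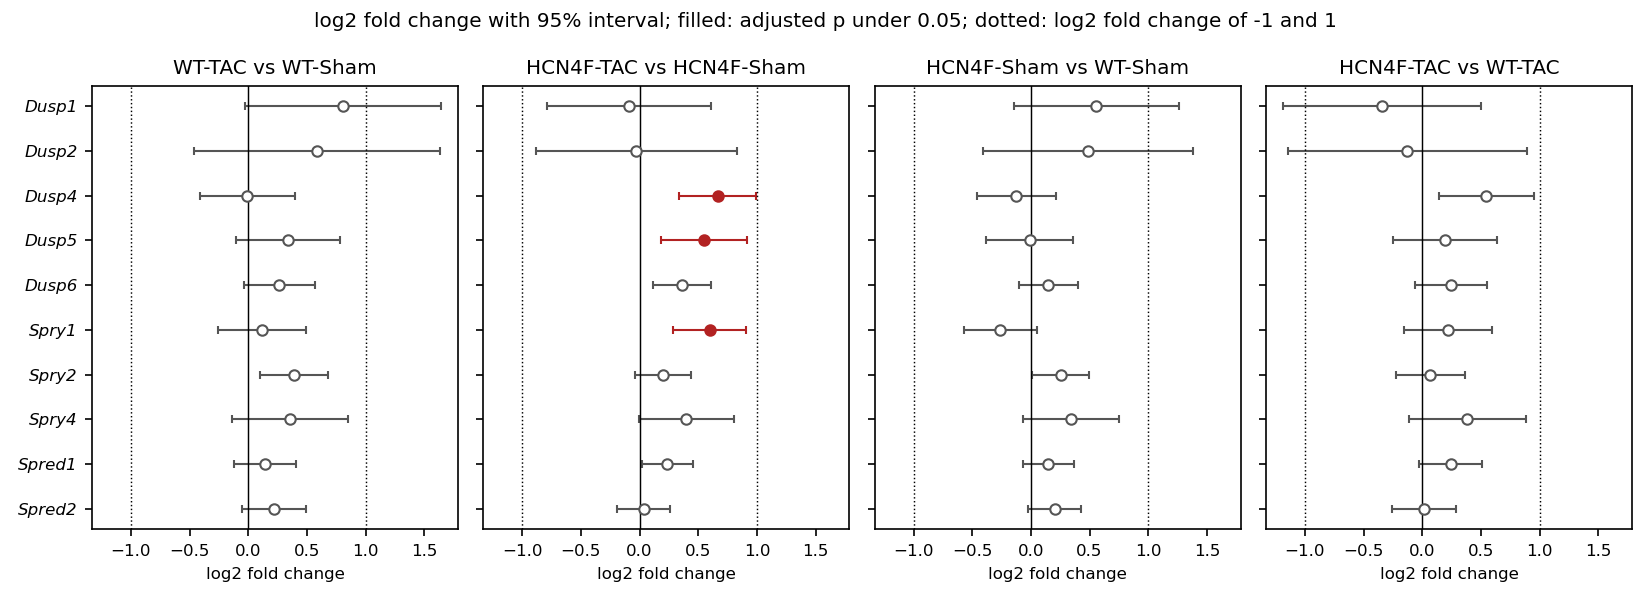
log2 fold change of the 10 genes in the 4 comparisons, with 95% intervals, the dotted lines marking -1 and 1 and filled points an adjusted p under 0.05. Filled points are Dusp4 (0.66), Spry1 (0.60) and Dusp5 (0.55) in HCN4F-TAC against HCN4F-Sham.

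Upstream sequences are printed for the members that rose or lay nearest to the threshold in HCN4F-TAC and for Dusp1, the most abundant member. A RefSeq table of promoter windows (GRCm38.p6) held entries for 8 of the 10 genes, not for Dusp4 and Spry4. Each stretch ends before the annotated first exon and is written in the direction of the gene, and a motif position counts bases back from the RefSeq start. Capitals mark motifs that a search of both strands found: the cAMP response element TGACGTCA in Dusp1, 2 CArG boxes (the serum response factor motif) and the short cAMP response element TGACG in Dusp5, and the CCAAT box in Dusp6 and Spry1.
Dusp1 (chr17:26508520-26508722, minus strand): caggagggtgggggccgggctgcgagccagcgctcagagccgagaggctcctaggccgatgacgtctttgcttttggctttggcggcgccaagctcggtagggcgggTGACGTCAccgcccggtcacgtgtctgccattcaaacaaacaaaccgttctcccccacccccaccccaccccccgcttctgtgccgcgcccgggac
Dusp5 (chr19:53528895-53529108, plus strand): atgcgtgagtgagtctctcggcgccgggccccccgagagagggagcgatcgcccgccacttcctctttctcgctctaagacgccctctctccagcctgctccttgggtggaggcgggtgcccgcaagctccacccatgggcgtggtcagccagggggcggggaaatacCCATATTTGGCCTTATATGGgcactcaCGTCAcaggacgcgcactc
Dusp6 (chr10:99262981-99263230, plus strand): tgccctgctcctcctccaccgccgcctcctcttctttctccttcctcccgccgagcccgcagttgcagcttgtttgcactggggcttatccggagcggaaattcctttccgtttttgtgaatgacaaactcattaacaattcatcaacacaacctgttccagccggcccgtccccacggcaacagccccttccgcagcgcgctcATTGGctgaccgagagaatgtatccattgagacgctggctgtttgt
Spry1 (chr3:37639697-37639946, plus strand): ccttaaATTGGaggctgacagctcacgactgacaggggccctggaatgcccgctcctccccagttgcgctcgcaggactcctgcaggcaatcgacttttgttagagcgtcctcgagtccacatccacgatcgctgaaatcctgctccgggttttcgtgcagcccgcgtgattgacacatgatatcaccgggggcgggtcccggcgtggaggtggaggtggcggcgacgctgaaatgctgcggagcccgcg

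The Dusp1 stretch lies inside the span of a longer Dusp1 transcript of the GENCODE annotation (chromosome 17, minus strand, 26505590 to 26562128). The 250 bases upstream of the start were searched in the 8 members and in 32851 promoters. The full cAMP response element occurred in Dusp1 alone of the 8 (positions -143 to -136) and in 1.55% of all promoters, and the CArG box in Dusp5 alone (-82 to -73 and -72 to -63) and in 1.47%. The short element, which also lies within the full one, was present in 3 of 8 members (Dusp1, Dusp5 and Spred2) and in 17.8% of all. CCAAT was present in 2 of 8 and in 33.8% of all, and the Egr motif GCGNGGGCG in 1 of 8 (Dusp2) and in 4.70%. The AP-1 motif TGANTCA (6.75% of all promoters) and TATAAA (12.4%) occurred in none of the 8. A match gives letters in a window and does not show that a factor binds there.

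In WT hearts none of the 10 genes passed the test after TAC. The fit had an adjusted p under 0.05 for none of them, beside 4.54% of all genes, none was called with the fold change limit, beside 0.706% of all genes, and 1 of 10, Spry2, had an unadjusted p under 0.05, beside 22% of all genes. Both WT-TAC libraries were above all 4 WT-Sham libraries for 5 of 10 (Dusp1, Dusp6, Spry2, Spry4 and Spred2), beside 39.2% of all genes whose libraries did not overlap in either direction. The median log2 fold change was 0.30 against -0.02 over all genes, with 9 of 10 above 0. DESeq2 on all groups likewise gave no adjusted p under 0.05 for 9 of the 10 genes, and it gave Dusp2 no adjusted p at all (4 to 14 reads). Of all tested genes, 108 were called, 7 without WT-TAC replicate 3, 47 without WT-Sham replicate 4, 49 without WT-Sham replicate 1 and 74 to 91 without any other library of the 2 groups.

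Dusp1 had 97.5, 104, 84.0 and 83.9 CPM in WT-Sham and 192.5 and 131.5 CPM in WT-TAC. Both WT-TAC values lay above the WT-Sham range, and the log2 fold change of 0.81 ± 0.38 SE had an adjusted p of 0.243 (edgeR, 95% interval -0.03 to 1.65). Fitted on the WT groups alone, with the filter, scaling, spread and adjustment all redone, Dusp1 had a log2 fold change of 0.82 in both tools, with an adjusted p of 0.0145 in edgeR and 1.67e-07 in DESeq2. Over all alternatives the adjusted p ran from 1.67e-07 to 0.657. On the WT groups alone Spry2 (adjusted p = 0.0214, edgeR) and Spry4 (0.0467) also came under 0.05.

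Spry2, an inhibitor of receptor tyrosine kinase signals to Ras, had 15.6, 15.2, 15.3 and 14.1 CPM in WT-Sham and 17.7 and 21.5 CPM in WT-TAC, with no overlap (log2 fold change 0.39 ± 0.14 SE, adjusted p = 0.11, edgeR). Dusp6 had 21.4, 20.9, 20.2 and 21.2 CPM against 22.8 and 27.3 CPM, and Spry4 had 15.0, 13.9, 15.1 and 14.4 CPM against 16.1 and 21.2 CPM. In both, WT-TAC replicate 2 was only just above the WT-Sham range and replicate 3 was well above it. Their log2 fold changes were 0.26 (-0.04 to 0.56) and 0.35 (-0.14 to 0.85). Replicate 3 was the higher of the WT-TAC pair for 6 of the 10 genes and replicate 2 for the other 4, Dusp1, Dusp2, Dusp4 and Spry1.

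Dusp4 in WT had 2.29, 3.19, 2.64 and 2.97 CPM in Sham and 3.04 and 2.52 CPM after TAC. These overlapped and their means were alike at 2.77 and 2.78 CPM, with a log2 fold change of -0.01 and a 95% interval of -0.41 to 0.40. Spry1 had 37.4, 44.0, 34.3 and 35.5 CPM in WT-Sham and 49.8 and 32.4 CPM in WT-TAC, a pair that straddled the Sham range. Dusp5 likewise had 4.62, 3.99, 4.63 and 4.70 CPM in WT-Sham and 3.99 and 7.24 CPM in WT-TAC. With log2 fold changes of 0.12 for Spry1 (-0.26 to 0.49) and 0.34 for Dusp5 (-0.10 to 0.78), the WT-TAC pair could not show whether these genes move as in HCN4F hearts. Spred1 was at 0.14 (-0.12 to 0.41), Spred2 at 0.22 (-0.05 to 0.49) and Dusp2 at 0.58 (-0.47 to 1.63).

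Whether the TAC response differs between the genotypes was tested as an interaction. In edgeR none of the 10 genes had an adjusted p under 0.05, and neither did any other gene (0% of all genes), and DESeq2 on all groups called none of the 9 genes to which it gave an adjusted p (all but Dusp2). The count over the whole table rests on 1 library: without HCN4F-TAC replicate 3 it was 78 genes, still with none of the 10, and 0 to 3 genes without any other. At an unadjusted p under 0.05 there were 1418 genes over the whole table (9.27%) and 1 of the 10, Dusp4, whose response was larger in HCN4F by 0.67 ± 0.25 SE on the log2 scale (95% interval 0.15 to 1.19, adjusted p = 0.467, edgeR). Spry1 had a difference of 0.48 (-0.01 to 0.97) and Dusp1 of -0.90 (-1.99 to 0.20). The other 7 genes lay between -0.61 for Dusp2 and 0.21 for Dusp5. The rises of Dusp4, Spry1 and Dusp5 in HCN4F hearts were thus not shown to differ from the WT response.

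The effect of the allele without pressure overload was compared between HCN4F-Sham and WT-Sham. None of the 10 genes was called, beside 0.209% of all genes, and none had an adjusted p under 0.05 in edgeR, beside 0.471%, or in DESeq2 on all groups, which gave Dusp2 no adjusted p. At an unadjusted p under 0.05 there was again 1 of 10, Spry2, beside 15.2% of all genes. It had 16.5, 19.4, 16.9 and 18.9 CPM in HCN4F-Sham against the WT-Sham values above. All HCN4F-Sham libraries were higher, as for 1 of 10 genes here and 8.56% of all genes without overlap, and the log2 fold change was 0.25 ± 0.11 SE (adjusted p = 0.305, edgeR). Of all tested genes, 32 were called here, 92 without HCN4F-Sham replicate 1 and 11 to 24 without any other library of the 2 groups. None of the 10 was among them. The median over the 10 genes was 0.18, that of all genes 0.00, and 7 of 10 were above 0.

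Of the other genes in Sham hearts, Dusp1 was at 0.56 (-0.15 to 1.26), with 84.2, 180, 161 and 118 CPM in HCN4F-Sham. Replicate 1 fell inside the WT-Sham range and the other libraries lay above it. Spry4 was at 0.34 (-0.07 to 0.75), Spred2 at 0.20 (-0.02 to 0.43), Dusp6 at 0.15 (-0.10 to 0.40) and Spred1 at 0.15 (-0.07 to 0.37). Spry1 was at -0.26 (-0.57 to 0.05), Dusp4 at -0.12 (-0.46 to 0.21) and Dusp5 at -0.01 (-0.39 to 0.36), so the 3 genes that rose in HCN4F-TAC had estimates at or below 0 in HCN4F-Sham. Those rises are measured against the same HCN4F-Sham libraries. Dusp2 was at 0.49 (-0.41 to 1.38). Without HCN4F-Sham replicate 1, Spred2 had an adjusted p of 0.0400 in this comparison.

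After TAC, HCN4F hearts were compared with the 2 WT-TAC hearts. None of the 10 genes was called, beside 0.0719% of all genes, none had an adjusted p under 0.05 in edgeR, beside 0.111%, or in DESeq2 on all groups, and 1 of 10 had an unadjusted p under 0.05, beside 12.5%. That gene was Dusp4, whose HCN4F-TAC libraries (3.34 to 4.51 CPM) were all above both WT-TAC libraries, as for 1 of 10 genes here and for 22.2% of all genes without overlap. Its log2 fold change was 0.55 ± 0.19 SE (95% interval 0.15 to 0.95, adjusted p = 0.246, edgeR). Spry4 was at 0.38 (-0.12 to 0.88), Dusp6 at 0.25 (-0.06 to 0.55), Spred1 at 0.24 (-0.03 to 0.51) and Spry1 at 0.22 (-0.16 to 0.60). Dusp5, at 0.19 (-0.24 to 0.63), Spry2, at 0.07 (-0.22 to 0.36), and Spred2, at 0.02 (-0.26 to 0.29), were nearer to 0. Dusp1 was at -0.34 (-1.19 to 0.50) and Dusp2 at -0.13 (-1.14 to 0.89). Of all tested genes, 11 were called, 158 without HCN4F-TAC replicate 3 and 6 to 11 without any other library of the 2 groups, again with none of the 10. The median was 0.21 against 0.00 over all genes, with 8 of 10 above 0.

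By level, HCN4F-TAC had the highest mean of the 4 groups for 8 of the 10 genes, and WT-TAC had it for Dusp1 and Dusp2. WT-Sham had the lowest mean for 7 genes and HCN4F-Sham for Dusp4, Dusp5 and Spry1. For Dusp6 the order was WT-Sham (20.9 ± 0.527 CPM), HCN4F-Sham (23.2 ± 3.97), WT-TAC (25.0 ± 3.22) and HCN4F-TAC (29.7 ± 3.99). Each step of that order was smaller than the sum of the SDs of the neighbouring groups (n = 4, 4, 2 and 4). For Spry4 the same order ran over 14.6 ± 0.563, 18.4 ± 5.30, 18.6 ± 3.60 and 24.3 ± 4.65 CPM, again in steps smaller than the summed SDs.

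Larger fold changes were measured among genes that ERK signalling is known to induce. A list of 19 ERK target genes, chosen like the 10 genes with earlier results of these data known, had 18 tested members. Of these, 8 were called higher in WT-TAC, 4 in HCN4F-TAC and 6 in HCN4F-Sham, each against its Sham or WT-Sham control. In HCN4F-TAC against WT-TAC none was called higher. The shares of all genes called, in either direction, were 0.706%, 2.75%, 0.209% and 0.0719% in that order. No listed gene was called lower. The median log2 fold changes of the list were 0.97, 0.47, 0.89 and 0.44 in the same order. The WT count rests on few libraries: it was 5 once WT-Sham replicate 4 was left out, and leaving out either WT-TAC heart gave 4 (replicate 2) or 3 (replicate 3). WT-Sham is the control of both the WT-TAC and the HCN4F-Sham comparison.

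Egr1, an immediate early transcription factor, had 9.56 to 18.5 CPM in WT-Sham, 109 to 206 CPM in HCN4F-Sham, 125 and 187 CPM in WT-TAC and 150 to 257 CPM in HCN4F-TAC. WT-Sham stood apart from the other 3 groups. The log2 fold change was 3.63 for WT-TAC (adjusted p = 0.00107, edgeR) and 3.65 for HCN4F-Sham (0.000175), both against WT-Sham, and 0.47 for HCN4F-TAC against HCN4F-Sham (0.295). Fos, a subunit of AP-1, had the log2 fold changes 2.55, 1.89 and 1.09 in these comparisons, all called. Among the largest other changes were Egr2 and Egr3, at 3.58 and 2.82 in WT-TAC and at 2.23 and 1.73 in HCN4F-TAC. These 2 genes also differed between the Sham groups, with means of 4.54 and 2.36 CPM in HCN4F-Sham against 0.559 and 0.433 CPM in WT-Sham. No test was made of the difference between the ERK target list and the 10 inhibitor genes.

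Etv4 and Etv5, ETS factors downstream of FGF receptors, differed from that order. Etv5 had 13.0, 13.0, 14.3 and 16.1 CPM in WT-Sham, 14.4, 16.7, 20.0 and 20.6 CPM in HCN4F-Sham, 16.4 and 21.1 CPM in WT-TAC, and 24.6, 29.2, 24.2 and 24.5 CPM in HCN4F-TAC. All HCN4F-TAC libraries were above those of the other groups. The log2 fold change was 0.51 for HCN4F-TAC against HCN4F-Sham (adjusted p = 0.00818, edgeR) and 0.41 for WT-TAC against WT-Sham (0.102). Etv4 was called higher in HCN4F-TAC against HCN4F-Sham (log2 fold change 1.57, adjusted p = 0.00815, edgeR), though at 23 to 34 reads per library against 6 to 12. In WT-TAC, Etv4 had 3 and 18 reads.

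**Figure D3:**
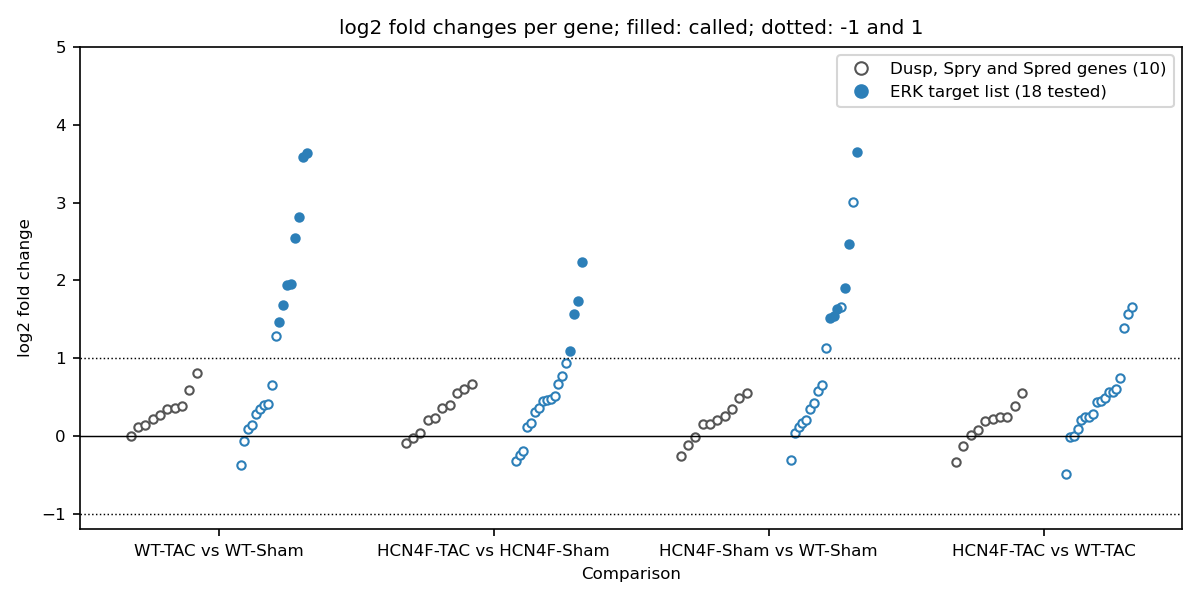
log2 fold change of each of the 10 Dusp, Spry and Spred genes (grey) and of the 18 tested ERK target genes (blue) in the 4 comparisons, with filled points for called genes and dotted lines at -1 and 1. No grey point passes 1, the largest being Dusp1 in WT-TAC at 0.81, whereas Egr1 reaches 3.63 in WT-TAC and 3.65 in HCN4F-Sham.

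The rest of the pathway was read from lists of ligands, receptors, cascade members and further inhibitors, which with the ERK targets and immediate early genes make 133 genes, 121 of them tested. Of these 121, in order of WT-TAC, HCN4F-TAC, HCN4F-Sham and the genotypes after TAC, 10, 9, 6 and 0 were called higher and 1 in each was called lower. Over all genes, 0.706%, 2.75%, 0.209% and 0.0719% were called in the same order. None of the 29 tested cascade genes, from Ras and Raf to the MAP kinases, was called in any comparison, and neither was any of 4 further MAP kinase phosphatases, 10 atypical Dusp genes or 13 other feedback inhibitors. At an adjusted p under 0.05 alone, as used above for the 10 genes, HCN4F-TAC against HCN4F-Sham had 4 of 29 cascade genes, 1 of 4 further phosphatases, 3 of 10 atypical Dusp genes and 2 of 13 other inhibitors, beside the 13.6% of all genes. WT-TAC against WT-Sham had 1 phosphatase and 1 atypical Dusp gene, and neither comparison of the genotypes had any. The phosphatase was Dusp8 in both, named after its values were seen, which acts mainly on JNK and p38. It had 45.5 ± 3.76 CPM in WT-Sham (n = 4) and 80.1 and 81.7 CPM in WT-TAC (log2 fold change 0.83, adjusted p = 0.00349, edgeR), and 54.0 ± 6.82 and 73.6 ± 11.7 CPM in HCN4F-Sham and HCN4F-TAC (0.45, adjusted p = 0.0113, edgeR; SD, n = 4). The atypical gene in WT was Dusp23, which fell by 0.58 on the log2 scale. The atypical genes in HCN4F were Dusp23 as well, which fell by 0.74, and Dusp3 and Dusp27, which rose by 0.30 and 0.76. Among 23 tested ligands, Hbegf, the heparin-binding EGF-like growth factor, was called higher after TAC in WT (log2 fold change 1.07) and in HCN4F (1.77). Its HCN4F-TAC libraries had 71.7, 40.5, 33.2 and 32.8 CPM against 10.7 to 15.4 CPM in HCN4F-Sham, and the WT-TAC libraries 22.5 and 27.3 CPM. Nrg2, a neuregulin, was called lower in WT-TAC (-1.61). Among 17 tested receptors, Met, the receptor for hepatocyte growth factor, was called higher after TAC in WT (1.99) and in HCN4F (1.44), at 2.60 to 3.90 CPM in HCN4F-TAC.

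The remaining called ligands had a mean under 1 CPM over all libraries. Nrg4, named after its values were seen, was lower in HCN4F than in WT both in Sham (log2 fold change -3.00) and after TAC (-2.85), and was the 1 listed gene called between the genotypes after TAC. The cause of this difference was not tested. Of 12 immediate early genes, 5 are also ERK targets. Called higher were 4 of the 12 in WT-TAC (beside 0.706% of all genes), 3 in HCN4F-TAC (2.75%) and 4 in HCN4F-Sham (0.209%). Their summed level was 351 to 392 CPM in WT-Sham, 483 to 685 in HCN4F-Sham, 549 and 744 in WT-TAC and 699 to 916 in HCN4F-TAC, so that no library of another group reached down to WT-Sham. Dusp1, itself an immediate early gene, had r = 0.562 and rho = 0.631 with this sum over the 14 libraries, and r = 0.749 for deviations from the group means.

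Dusp6 and Spry4 varied together. Across the 14 libraries their log2 CPM had Pearson's r = 0.935 and Spearman's rho = 0.921, the closest of the 45 pairs among the 10 genes, and for deviations from the group means r was 0.88. These points share library depth and tissue makeup, and the correlations are given as a description. Of the marker sums, Dusp6 and Spry4 were closest within groups to 2. For deviations they had r = 0.664 and 0.627 with the endothelial sum, and 0.693 and 0.727 with the summed level of 4 erythroid (haemoglobin) markers. Over the 14 libraries these relations were weaker, at r = 0.436 to 0.505. The part of either cell type in this pair was not tested. Spry4 and Spred1 (r = 0.788), Spry4 and Spred2 (0.756), Dusp6 and Spred2 (0.754), Dusp6 and Spry2 (0.745) and Spry2 and Spred2 (0.723) were the next closest pairs. Spry1 and Spry2 did not track each other, with r = -0.01, and r = -0.66 for deviations from the group means.

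**Figure D4:**
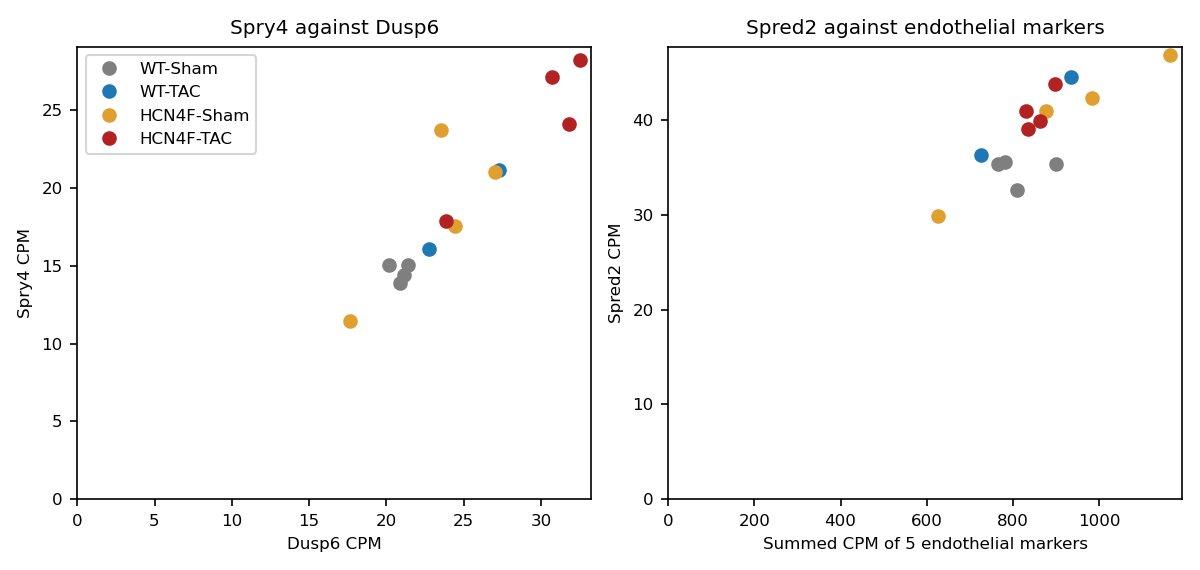
Left, CPM of Spry4 against CPM of Dusp6, and right, CPM of Spred2 against the summed CPM of 5 endothelial markers, 1 point per library in 14 libraries with colours for the 4 groups. Dusp6 and Spry4 rise together (r = 0.935 on log2 CPM), and Spred2 follows the endothelial sum (r = 0.840).

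Spred2 followed the endothelial markers most closely of the 10 genes. Its log2 CPM had r = 0.840 with the log2 of the summed endothelial level over the 14 libraries, rho = 0.793, and r = 0.928 for deviations from the group means. Other members shared this relation within groups: Dusp6 (0.664), Spry4 (0.627), Spred1 (0.549), Spry2 (0.522), Dusp1 (0.408) and Dusp2 (0.34). Dusp5 (0.06), Spry1 (-0.079) and Dusp4 (-0.311) did not. The lowest Spred2 level of all, 29.9 CPM, was in HCN4F-Sham replicate 1, where the 5 endothelial markers summed to 626 CPM against 878 to 1166 CPM in the other HCN4F-Sham libraries. That library was the lowest of its group for 8 of the 10 genes, beside 26.8% of all genes, and HCN4F-TAC replicate 4 was the lowest of its group for 7 of 10, beside 23.3% of all genes. The endothelial sum of HCN4F-TAC replicate 4 was 835 CPM, within the 830 to 898 CPM of its group. Both libraries had the lowest erythroid sum of their group, 67.9 CPM against 171 to 188 CPM in HCN4F-Sham and 94.8 CPM against 136 to 347 CPM in HCN4F-TAC. Without both of these libraries, 3 of the 10 genes again had an adjusted p under 0.05 in HCN4F-TAC against HCN4F-Sham (edgeR): Dusp4 at 0.0134, Dusp5 at 0.0463 and Dusp6 at 0.0204. The part of endothelial or erythroid RNA in these levels was not tested.

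**Figure D5:**
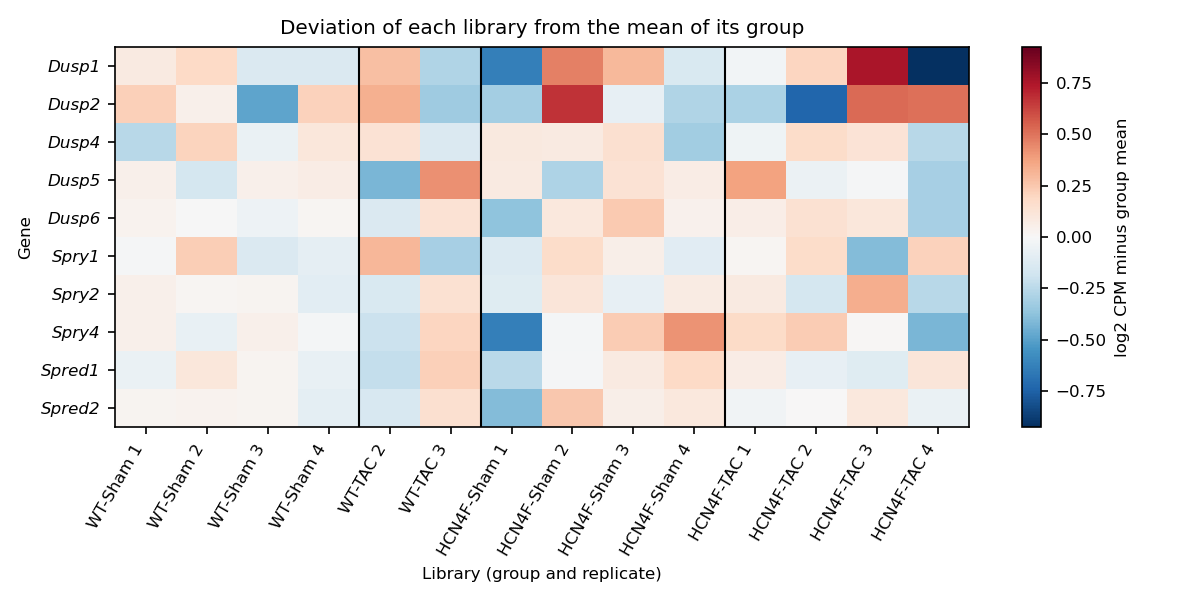
Deviation of log2 CPM from the mean of its group for each of the 10 genes (rows) in each library (columns, black lines between groups), red for higher and blue for lower. HCN4F-Sham replicate 1 is blue for most genes, with a median deviation of -0.28 over the 10, as is HCN4F-TAC replicate 4 with a median of -0.26.

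For each member with a mean of at least 1 CPM, the tested genes with the most similar log2 CPM over the 14 libraries were ranked by Pearson's r. Spred2 was most like Nrp1 (r = 0.95), the VEGF co-receptor neuropilin 1, then Ldlrad3 and Vegfc. Dusp6 was most like Trim16 (0.934), Galr2 and Zfp36l2, and Spry4 was most like Trim41 (0.948), Bhlhe41 and Sqstm1. Spry2 was most like Zfyve27 (0.949), Plaur and Kalrn, and Spred1 most like Cdk8 (0.938), Gmfb and Runx2. Spry1 was most like Creb3l2 (0.909), Piezo2 and Snx18, and Dusp5 most like Nop2 (0.901), Zfp770 and Gm12454. Dusp1 was most like Rasd1 (0.90), Fbxo42 and Casc3, and Dusp4 most like Ascc2 (0.879), Add2 and Qsox1. These are the highest values out of all tested genes, and no test was made of them.

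Exons of Dusp1, Dusp5 and Spry1 overlap antisense genes in the GENCODE annotation, namely Ergic1, AC137853.2 and Gm42922. Whether the counting used the strand is not given in the sources used here, so reads of such pairs cannot be told apart where they overlap. Gm42922 had 4 to 17 reads per library, few beside the 767 to 1613 reads of Spry1, and Ergic1 had 738 to 1438 reads beside the 1520 to 5605 of Dusp1. No counts under the name AC137853.2 were available, so it could not be set beside the 79 to 253 reads of Dusp5.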

How the data were processed

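Poly(A) RNA of left ventricle was sequenced, and the deposited table holds raw read counts per gene, made by the authors; the build is GRCm38 per the submitters' processing notes, and the aligner, the counting tool, its annotation and its use of strand are not given in the sources used here. Values were used as deposited for 14 libraries; 2 columns that match no sample used here were left out, and further WT-TAC hearts were not analysed here. The study describes the replicates as biological. Libraries of a group differed by more than sampling noise (chi-square per gene 6.22 to 61.8).

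The 10 members and all gene lists were chosen with earlier results of these data known. Counts were tested with edgeR 4.0.16 (R 4.3.3; TMM, filterByExpr by group, robust quasi-likelihood fit, 1 mean per group over all 14 libraries), with Benjamini-Hochberg adjustment over 15292 genes; 174 rows without a symbol were kept by their Ensembl identifier. A gene was called when its adjusted p was below 0.05 and its log2 fold change exceeded 1 in size, and in the interaction by adjusted p only. This differs from the study's DESeq2 Wald test, which was run as an alternative (DESeq2 1.42.0). The code was tested on simulated data. log2 CPM used a prior count of 2, exon lengths are unions of GENCODE exons, and intervals are 95%. All members were named in every comparison; from each list, at most 3 called genes per comparison with the largest change and a mean CPM of at least 1, and Egr1, Fos, Etv4 and Etv5 regardless; and for each member at 1 CPM or more the 3 most alike genes. Alternatives covered the test, scaling, filter, call rule, the libraries in the fit, each replicate left out and a replicate block. Figures were drawn with matplotlib 3.10.9.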

Additional observations from a re-analysis of the deposited data

Results flagged for a closer look

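Of 30 sets of 4 libraries looked at (10 genes in 3 groups), 3 held a library that stood apart from the other 3 of its group by Dixon's criterion, where chance flags about 5% of such sets. Dusp4 was at 2.02 CPM in HCN4F-Sham replicate 4, below 2.69 to 2.82 CPM in the other libraries. Dusp5 was at 3.99 CPM in WT-Sham replicate 2, below 4.62 to 4.70 CPM. Spred2 was at 32.6 CPM in WT-Sham replicate 4, below 35.4 to 35.6 CPM. Each was a low value, and each lay in a different library. The WT-TAC group of 2 was not examined in this way.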

How the results depend on the processing

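No member was called with the fold change limit under any alternative, in any comparison. Without that limit, HCN4F-TAC against HCN4F-Sham gave 3 members, and 2 to 4 over the alternatives. In WT-TAC against WT-Sham, where the main count at an adjusted p under 0.05 was 0, it was 3 with the WT groups fitted alone, in edgeR and in DESeq2, and 1 with no filter on low counts. In HCN4F-Sham against WT-Sham it was 0 to 1 with a replicate left out, the 1 being Spred2 without HCN4F-Sham replicate 1. Of 799 alternative log2 fold changes of members, 39 changed sign and 760 did not, and 1 of 80 alternative group means moved by more than 1 SD (Dusp6 in WT-Sham, 20.4 CPM by library size alone). Adding both low HCN4F libraries to those left out, counting members at the adjusted p alone and counting ERK targets were alternatives chosen after seeing the data.

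Dusp4 in WT-TAC turned from -0.01 to 0.0012 (DESeq2, all groups), 0.0084 (DESeq2, WT groups), 0.0061 (edgeR, WT groups), 0.0037 (size factors) and 0.018 (no filter), and to -0.14 to 0.13 with a replicate left out. Leaving out 1 replicate gave these ranges of log2 fold change. In WT-TAC, Dusp5 ran from -0.17 to 0.69, Spry1 from -0.22 to 0.40 and Spred1 from -0.10 to 0.34. In HCN4F-TAC against HCN4F-Sham, Dusp1 ran from -0.38 to 0.14, Dusp2 from -0.33 (without both low libraries) to 0.27 and Spred2 from -0.083 to 0.12, and Spred2 was at -0.061 without both low libraries. Dusp5 ran from -0.064 to 0.070 in HCN4F-Sham. Between genotypes after TAC, Dusp2 ran from -0.50 to 0.27, Dusp5 from -0.16 to 0.71, Spry1 from -0.062 to 0.56, Spry2 from -0.062 to 0.22 and Spred2 from -0.12 to 0.17. In the interaction, Dusp5 ran from -0.15 to 0.72, Dusp6 from -0.028 to 0.24, Spry4 from -0.14 to 0.26 and Spred1 from -0.11 to 0.33. The cause was not tested.

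Libraries with the same number in different groups did not deviate together (18 pairs, r from -0.12 to 0.159, 2 above 0.1), so no pairing by number was seen. This check cannot exclude a small shared effect. Deviations of the 2 WT-TAC libraries from their mean mirror each other, so their pairs add little. With the replicate block, 0 members were called in each comparison and 3 had an adjusted p under 0.05 in HCN4F-TAC. When a WT-TAC library was left out, the remaining one was assumed to vary like the other groups. Dusp2, at 4 to 14 reads, and Dusp1 had the widest intervals of the 10 genes in each comparison.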
